A study of Bos taurus with 90 samples.

Results

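ENSBTAG00000008827 and ENSBTAG00000023929 are 2 of the 27270 bovine genes counted in the series, and both are given by Ensembl identifier. They were selected on measured values, as genes that were higher in the mural granulosa cells (MGCs) of large antral follicles than in those of smaller ones. Among the follicles that the study called healthy, the MGCs of large follicles held both genes at higher mean levels than the MGCs of medium follicles. Outside that set the medians of large follicles were still above those of small follicles, whereas medium and large follicles overlapped, and the MGCs of S8 and of several medium follicles carried as much of both genes as the MGCs of many large follicles. The reference table matched 0 of the 27270 identifiers to a symbol, so the genes are called by their identifiers, no function is given for them, and the labelled cell types were not checked against marker genes.

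An antral follicle is a fluid-filled cavity that encloses 1 oocyte. MGCs line its inner wall, divide under follicle-stimulating hormone and make oestradiol, and in late growth they acquire the response to luteinizing hormone. Cumulus cells (CCs) descend from the same granulosa lineage, surround the oocyte and are joined to it by fine projections. Only a small share of antral follicles grows on to ovulation, and the remainder is lost by atresia, which often shows first in the granulosa layer.

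MGCs, a pool of CCs and the single oocyte were taken from each of 30 follicles dissected from ovaries of Bos taurus cows collected at a slaughterhouse, with no treatment and no genetic change in any group. By diameter, 10 follicles were small (3.1 to 3.8 mm), 10 medium (6.2 to 7.1 mm) and 10 large (9.6 to 11.6 mm). The study removed 3 follicles for quality, which left 9 small (S1 to S9), 8 medium (M1 to M8) and 10 large (L1 to L10), numbered by diameter. From gene expression and principal components in the MGCs, it then set aside 10 follicles as healthy, namely S4, S5, S6, M5, M6, M8, L5, L8, L9 and L10. The cow of each follicle is not given in the labels, and several follicles may have come from 1 cow, so that a p-value over follicles may be too small. MGCs went into standard bulk libraries, whereas CC pools and oocytes were amplified by SMART-seq2, so a difference between MGCs and either of the others cannot be told apart from a difference in library protocol. In bulk libraries, fewer cells of a type and less RNA per cell cannot be told apart either.

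Levels are given as CPM, the count of a gene scaled to a fixed library total. Library totals lay between 26739954 and 39266980 counts in MGCs, between 8760201 and 40180192 in CCs and between 8442938 and 53173320 in oocytes. The limit that a count of 0 allows, taken as 3 counts, was therefore at most 0.112 CPM in MGCs, 0.342 CPM in CCs and 0.355 CPM in oocytes, and this limit covers counting error alone. The CC library of S7 held counts for only 1066 genes and was left out, so that 80 of the 90 libraries were used.

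The first question was how each gene varied with follicle size in MGCs. ENSBTAG00000008827 ranged from 0.24 to 496 CPM in small follicles with a median of 8.50 CPM (n = 9). In medium follicles it ranged from 0.746 to 1061 CPM with a median of 167 CPM (n = 8). In large follicles it ranged from 30.8 to 1907 CPM with a median of 186 CPM (n = 10). The 3 ranges overlapped widely, and what set the large follicles apart was the lower end of their range, since no large follicle fell below 30.8 CPM whereas 7 small and 4 medium follicles did.

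Within the healthy set the same gene formed steps. The MGCs of the 3 healthy small follicles held it at 0.327 CPM in S4, 1.11 CPM in S5 and 0.24 CPM in S6. The 3 healthy medium follicles held it at 3.33 CPM in M5, 0.746 CPM in M6 and 4.51 CPM in M8. The 4 healthy large follicles held it at 41.3 CPM in L5, 259 CPM in L8, 30.8 CPM in L9 and 56.5 CPM in L10. Small and medium follicles overlapped, and every healthy large follicle lay above every healthy follicle of the other stages. Such a separation was not rare, because 8.16% of the genes had all healthy large follicles above all healthy medium ones and 13.4% had them above all healthy small ones, and since this contrast chose the genes it is given as a description.

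The 17 retained follicles outside the healthy set showed another picture. Among small follicles, S8 held ENSBTAG00000008827 at 496 CPM and S9 at 103 CPM, and the remaining 4 lay between 1.87 and 20.1 CPM. Among medium follicles, M2 had 385 CPM, M3 had 323 CPM, M4 had 1061 CPM and M7 had 734 CPM, and only M1 was low, at 11.3 CPM. Among large follicles, L3 had 1907 CPM, L1 had 941 CPM and L7 had 659 CPM, whereas L2 had 31.4 CPM. Medium and large follicles of this group thus overlapped, and S8 and the 4 high medium follicles lay above all 4 healthy large ones.

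**Figure D1:**
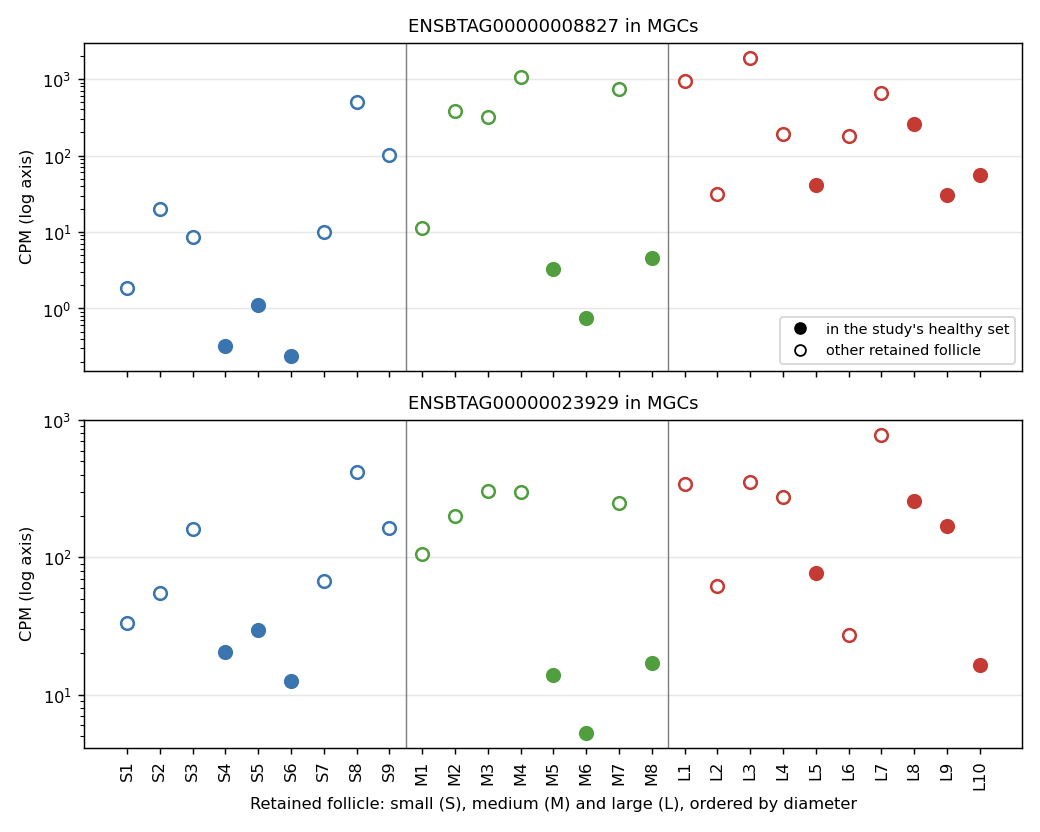
CPM (log axis) of both genes in the MGCs of the 27 retained follicles, 1 point per follicle in order of diameter, with filled points for the 10 follicles of the study's healthy set and open points for the other 17. The filled points of small and medium follicles lie lowest in their stages in both panels, and for ENSBTAG00000008827 the healthy large follicles start at 30.8 CPM.

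ENSBTAG00000023929 was detected in the MGCs of every retained follicle. It ranged from 12.7 to 416 CPM in small follicles with a median of 55.1 CPM, from 5.28 to 303 CPM in medium follicles with a median of 153 CPM, and from 16.5 to 783 CPM in large follicles with a median of 213 CPM. The stages overlapped over most of their ranges, and L2, L5, L6 and L10 lay below the small follicles S3 at 162 CPM and S9 at 163 CPM.

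In the healthy set, ENSBTAG00000023929 stood at 20.4 CPM in S4, 29.7 CPM in S5 and 12.7 CPM in S6. It stood at 13.9 CPM in M5, 5.28 CPM in M6 and 17.2 CPM in M8. It stood at 77.5 CPM in L5, 256 CPM in L8, 170 CPM in L9 and 16.5 CPM in L10. L10 lay below M8 and below S4 and S5, so the healthy large follicles overlapped those of both other stages, and the higher mean of large follicles came from L5, L8 and L9.

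Outside the healthy set the highest level of ENSBTAG00000023929 was 783 CPM in L7, followed by 416 CPM in S8, 353 CPM in L3 and 340 CPM in L1. The medium follicles M1, M2, M3, M4 and M7 lay between 106 and 303 CPM, above all 3 healthy medium follicles. Of the large follicles, L6 had 27.3 CPM and L2 had 61.5 CPM. For both genes, the 3 healthy small follicles were the lowest small ones and the 3 healthy medium follicles the lowest medium ones. In large follicles this held for neither gene, since L2 lay below L5, L8 and L10 for ENSBTAG00000008827 and L6 lay below L5, L8 and L9 for ENSBTAG00000023929. The study drew the healthy set from expression in these same MGCs. The share of all genes with such an order in small and medium follicles was not counted, so it is not read as particular to these genes.

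Fold changes of MGCs were estimated with edgeR's quasi-likelihood fit as a description, with no test, because this contrast chose the genes. From medium to large follicles, the log2 fold change of ENSBTAG00000008827 was 5.02 (SE 0.92) in the 10 healthy follicles, 0.39 (SE 1.23) in all 27 retained follicles and 0.29 (SE 1.19) in the 17 outside the healthy set. From small to large follicles it was 7.32 (SE 1.05) in the healthy set, 2.68 (SE 1.27) in the retained follicles and 2.68 (SE 1.2) outside the healthy set. Both values thus depended on the follicles used and were highest in the healthy set. Leaving the healthy follicles out of the retained ones moved the medium to large value from 0.39 to 0.29. It left the small to large value the same to 2 decimals. Without L3, the follicle with the highest level, the medium to large value over the retained follicles turned to -0.29. Without S8, the small follicle with the highest level, the small to large value was 4.49 and the small to medium value 4.10, against 2.68 and 2.29 with it.

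For ENSBTAG00000023929, the log2 fold change from medium to large follicles was 3.36 (SE 0.75) in the healthy set, 0.62 (SE 0.71) in the retained follicles and 0.31 (SE 0.66) outside the healthy set. From small to large follicles it was 2.51 (SE 0.72), 1.17 (SE 0.70) and 1.03 (SE 0.63) in the same order. From small to medium follicles its sign differed between the sets, with -0.85 (SE 0.71) in the healthy follicles and 0.55 (SE 0.72) in the retained ones. ENSBTAG00000008827 was 2.29 (SE 0.93) in that step in the healthy set and 2.29 (SE 1.29) in the retained follicles.

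**Figure D2:**
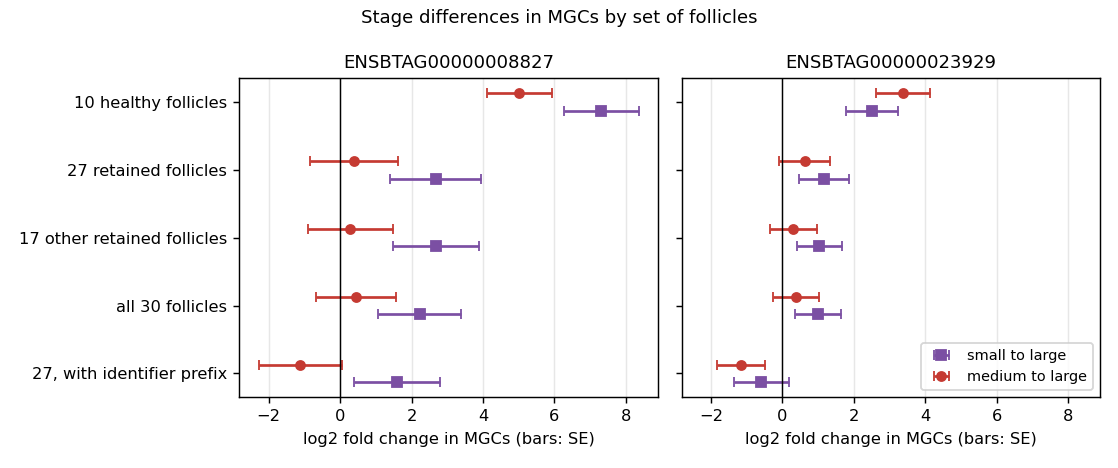
Log2 fold changes in MGCs from edgeR, from medium to large (circles) and from small to large follicles (squares), with bars of 1 SE, for 5 choices of follicles or covariates given on the vertical axis. For ENSBTAG00000008827 the medium to large value is 5.02 in the 10 healthy follicles, 0.39 in the 27 retained ones and -1.12 with the identifier prefix in the fit. With the prefix, no healthy small or medium follicle bears on the stage difference.

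The follicle identifiers begin with 3 digits that several follicles share, whose meaning is not stated in the labels, and 6 such prefixes occurred in more than 1 stage. The 3 healthy small follicles shared 1 prefix and the 3 healthy medium follicles had 2, and neither occurred in any other stage. The 4 healthy large follicles had 4 other prefixes. In the healthy set, stage and prefix can therefore not be told apart. With the prefix in the fit of the retained follicles, the medium to large log2 fold change was -1.12 (SE 1.17) for ENSBTAG00000008827. For ENSBTAG00000023929 it was -1.15 (SE 0.67), and both were of the opposite sign. In this fit, only follicles whose prefix occurred in more than 1 stage bear on the stage difference. No healthy small or medium follicle was among them, so the comparison is not that of all 27 follicles. Within single prefixes, ENSBTAG00000008827 was higher in large than in medium follicles in 1 of 3 prefixes and higher in large than in small follicles in 3 of 3. ENSBTAG00000023929 was higher in large follicles in 1 of 3 prefixes for either contrast. Both genes were higher in medium than in small follicles in 2 of 2 prefixes. Each of these comparisons rested on 1 to 3 follicles a side.

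The spread between follicles of 1 stage was large for both genes. In MGCs, the SD of log2(CPM + 1) within a stage was 2.97 for ENSBTAG00000008827, and 5 of the 14910 genes tested in MGCs had a larger one. For ENSBTAG00000023929 it was 1.87, with 120 genes above it, against a median of 0.489 over all genes. The medium follicles fell into separate groups for both genes. ENSBTAG00000008827 left a gap between M1 at 11.3 CPM and M3 at 323 CPM, and ENSBTAG00000023929 one between M8 at 17.2 CPM and M1 at 106 CPM.

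The next question was whether both genes varied together from follicle to follicle. Both had been chosen on these MGC values, so their correlation is given as a description with no test. In small follicles their MGC levels on the log2(CPM + 1) scale had a Pearson r of 0.92 and a Spearman rho of 0.93 (n = 9). Without the 2 follicles farthest from the median, r was 0.81. S6 was lowest for both genes and S8 highest. The 3 healthy small follicles, which shared 1 identifier prefix, were the low end of this relation. Among the 6 other small follicles r was 0.85 and rho 0.77, and r was 0.41 without the 2 farthest of them. No prefix held the 6 follicles of 1 stage that a correlation within it would need.

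In large follicles r was 0.64 and rho 0.73 (n = 10), and r was 0.73 without the 2 farthest follicles. L10 and L6 held the least ENSBTAG00000023929 of the large follicles, with 56.5 and 183 CPM of ENSBTAG00000008827. No r was computed over medium follicles because of their separate groups. The 4 relations with follicle diameter within a stage and the 4 between MGCs and the CCs of the same follicles gave r between -0.32 and 0.60. None had an unadjusted p below 0.1136 (two-sided permutation tests, exact in small follicles). The lowest adjusted p was 0.379, over all 10 relations computed. That adjustment included the relations between both genes, which are not read as tests. Within a stage, neither gene was thus shown to follow diameter in MGCs.

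**Figure D3:**
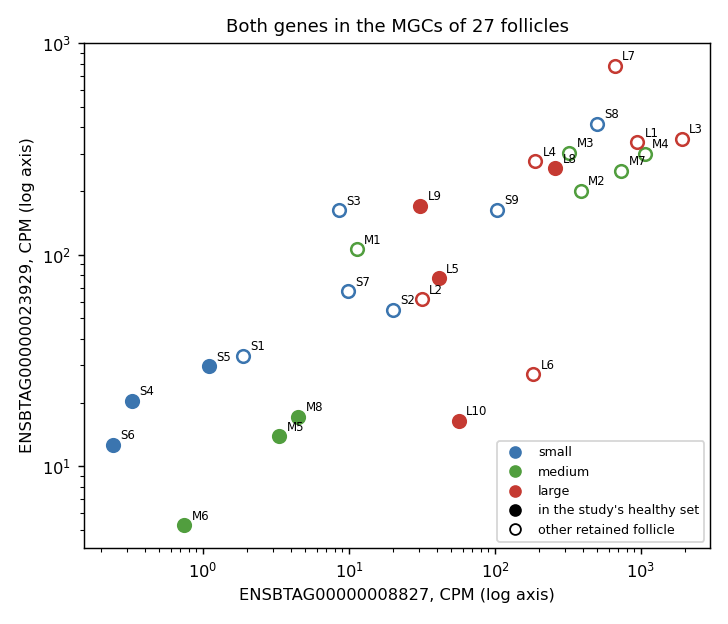
CPM of ENSBTAG00000008827 (horizontal, log axis) against CPM of ENSBTAG00000023929 (vertical, log axis) in the MGCs of the 27 retained follicles, 1 labelled point per follicle, coloured by stage and filled for the healthy set. Healthy small and medium follicles gather at the lower left, S8 and M4 lie among the large follicles at the upper right, and L6 and L10 lie below the band of the others.

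Over the 27 MGC libraries, which share stages and identifier prefixes, the log2(CPM + 1) profiles of both genes had an r of 0.83, given with no test. Among 10610 genes with a mean of at least 5 CPM in MGCs, r with ENSBTAG00000008827 reached 0.92, exceeded 0.8 for 111 genes and lay below -0.8 for 168 genes, down to -0.94. For ENSBTAG00000023929 the highest r was 0.95, and 404 genes exceeded 0.8 and 236 lay below -0.8, also down to -0.94. Of the genes above 0.8, 67 were common to both, which is 60.4% of those of ENSBTAG00000008827 and 16.6% of those of ENSBTAG00000023929. Of the genes below -0.8, 101 were common, or 60.1% and 42.8%. The genes most like them stay unnamed, since the identifiers have no symbols here.

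Neither gene had been chosen on CCs or oocytes, so those libraries were tested across stages with edgeR over all genes, calling a gene changed at a fold change above 2 and an adjusted p below 0.05. CCs held ENSBTAG00000008827 at low levels. Its count was 0 in 5 of 8 small, 2 of 8 medium and 5 of 10 large follicles, which allows up to 0.342 CPM in the shallowest library. The median was 0 CPM in small follicles with a highest value of 0.231 CPM, 0.318 CPM in medium follicles with a highest value of 2.40 CPM in M4, and 0.289 CPM in large follicles. Among large follicles, L4 had 12.9 CPM and L5 had 5.36 CPM, and the others lay at or below 1.05 CPM. The log2 fold change from small to large follicles was 4.72 (SE 1.52, edgeR adjusted p = 0.0699) and did not pass, in a comparison that called 3.34% of 15109 genes, while DESeq2 gave 4.85 with an adjusted p of 0.0158. It was 1.05 (SE 1.35, adjusted p = 0.686) with all 30 follicles and 1.95 (SE 2.01, adjusted p = 0.703) with the identifier prefix in the fit, and over all the alternatives the adjusted p ran from 0.0158 to 0.71. The value rested on few libraries, with 5 of 10 large follicles at 0 counts.

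From small to medium follicles, the log2 fold change of ENSBTAG00000008827 in CCs was 2.91 (SE 1.44, edgeR adjusted p = 0.422), and from medium to large it was 1.80 (SE 1.29, adjusted p = 0.772). edgeR called 0% of genes in either comparison, and DESeq2 called 37 and 18 genes. In edgeR, 1378 and 682 genes had both a fold change above 2 and an unadjusted p below 0.05.

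ENSBTAG00000023929 was detected in CCs more widely, with 1 library of 26 at 0 counts (S1). In small follicles it ranged from 0 to 6.81 CPM with a median of 0.917 CPM, in medium follicles from 1.75 to 67.4 CPM with a median of 6.64 CPM, and in large follicles from 0.116 to 12.7 CPM with a median of 5.71 CPM. M3 stood above all other CC libraries at 67.4 CPM, and the next was L6 at 12.7 CPM. The log2 fold change was 2.80 (SE 0.87, edgeR adjusted p = 0.303) from small to medium, -1.08 (SE 0.77, adjusted p = 0.769) from medium to large and 1.71 (SE 0.81, adjusted p = 0.203) from small to large follicles, so none passed. In CCs, L7 held 0.116 CPM of this gene, the lowest large follicle, while its MGCs held 783 CPM, the highest of all.

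In oocytes ENSBTAG00000008827 was also low. The median was 0.915 CPM in small, 0.127 CPM in medium and 0.751 CPM in large follicles, with 3 of 9, 2 of 8 and 2 of 10 libraries at 0 counts. The highest oocytes were L9 at 10.5 CPM, L7 at 9.39 CPM and L1 at 4.88 CPM, whereas L3, whose MGCs held the most, had 0 counts. The healthy small follicles had 2.84 CPM in S4, 2.17 CPM in S5 and 2.18 CPM in S6, the highest 3 of the small ones. These 3 shared an identifier prefix that no other follicle had, so the healthy label and the prefix cannot be told apart here. How common such an order was among all genes in oocytes was not counted. The log2 fold changes were -1.08 (SE 1.31, edgeR adjusted p = 0.785) from small to medium, 2.39 (SE 1.35, adjusted p = 1) from medium to large and 1.31 (SE 1.24, adjusted p = 0.621) from small to large follicles, and none passed. These comparisons called 0.0736%, 0% and 1.51% of 14936 genes. For the comparison from medium to large follicles, 367 genes had both a fold change above 2 and an unadjusted edgeR p below 0.05, and DESeq2 called 0 genes.

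ENSBTAG00000023929 was present in every oocyte. It ranged from 16.8 to 97.7 CPM in small follicles with a median of 40.1 CPM, from 43.0 to 141 CPM in medium follicles with a median of 72.6 CPM, and from 31.9 to 110 CPM in large follicles with a median of 90.6 CPM. Of the small follicles, 8 lay at or below 57.2 CPM and S7 stood at 97.7 CPM, while 8 of the 10 large ones lay at or above 80.7 CPM. From small to large follicles the log2 fold change was 0.92 (SE 0.27, edgeR adjusted p = 0.0396), a difference that passed on p but not on the fold change above 2 that a call required. Over the alternatives the adjusted p lay between 0.00457 and 0.54. It was 0.00457 without S7, 0.244 with all 30 follicles, 0.418 in the healthy set, 0.54 with the identifier prefix in the fit and 0.187 outside the healthy set, with a log2 fold change of 0.75 to 1.15 throughout. From small to medium follicles it was 0.81 (SE 0.28, adjusted p = 0.136), and from medium to large it was 0.11 (SE 0.28, adjusted p = 1).

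**Figure D4:**
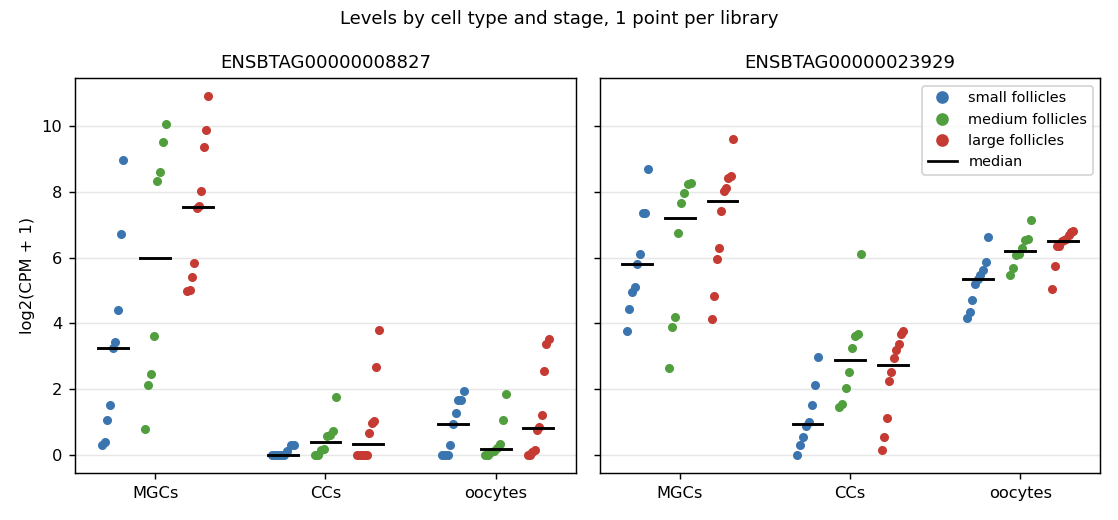
Levels of both genes as log2(CPM + 1) in MGCs, CCs and oocytes, 1 point per library, coloured by stage, with the median of each stage as a black line. Medians of ENSBTAG00000008827 are at least 8.50 CPM in MGCs and below 1 CPM in CCs and oocytes, and ENSBTAG00000023929 is present in MGCs and oocytes and lower in CCs.

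Across cell types and stages, the medians of ENSBTAG00000008827 in CPM ran in the order of MGCs of large (186), medium (167) and small follicles (8.50), oocytes of small (0.915) and large follicles (0.751), CCs of medium (0.318) and large follicles (0.289), oocytes of medium follicles (0.127) and CCs of small follicles (0). For ENSBTAG00000023929 the order was MGCs of large (213) and medium follicles (153), oocytes of large (90.6) and medium follicles (72.6), MGCs of small follicles (55.1), oocytes of small follicles (40.1), and CCs of medium (6.64), large (5.71) and small follicles (0.917). In either order the range of each group overlapped that of its neighbour.

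Within single follicles the order of cell types was steadier. ENSBTAG00000008827 was higher in MGCs than in CCs in 26 of 26 follicles and higher in MGCs than in the oocyte in 24 of 27. The exceptions were S4, S5 and S6, whose MGCs held at most 1.11 CPM. ENSBTAG00000023929 was higher in MGCs than in CCs in 26 of 26 follicles, with a median ratio of 26.4 over the 25 with counts in both. It was higher in MGCs than in the oocyte in 16 of 27 follicles. These orders set bulk libraries against amplified ones and are not tested. The share of all genes that were higher in MGCs than in CCs or the oocyte of every follicle was not counted either.

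CCs and oocytes were both amplified by SMART-seq2, but from a pool of cells and a single cell and with different numbers of PCR cycles, so cell type and amplification cannot be told apart. They were compared in a fit over both cell types and all stages. ENSBTAG00000023929 was lower in CCs than in oocytes by a log2 fold change of -3.20 (SE 0.38, edgeR adjusted p = 7.9e-11) and lower in 26 of 26 follicles, with a median ratio of CCs to oocyte of 0.0611. This comparison called 70.8% of 15133 genes, so a call in it is the common outcome. With the follicle as a block, which pairs the CCs and oocyte of 1 follicle, the value was -3.96 (SE 0.41). For ENSBTAG00000008827 the log2 fold change was -0.94 (SE 0.79, edgeR adjusted p = 0.261), which did not pass, and CCs were higher than the oocyte in 8 follicles and lower in 13. Its sign rested on the choice of follicles, with 0.82 (SE 0.79) when the removed follicles were included.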

How the data were processed

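MGCs, CC pools and oocytes of 30 bovine follicles were sequenced, and the deposited values were counts per gene, with no normalization, made by the authors with featureCounts on ARS-UCD1.2. The submitters' processing notes name HISAT2 2.2.1 and the study's methods name STAR with uniquely mapping reads, and which of them made the counts was not settled. Genes that share sequence with other genes could lose reads under such counting. Groups were taken from the labels, and the removed follicles and the healthy set from the study. The members and lists were chosen with earlier results of these data known. No column of another series was found.

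CPM was computed from column totals. The filter asked for more than 1 CPM in 15 or more of the libraries of 1 cell type, among retained follicles, and kept 15134 of 27270 genes. Stages were compared with edgeR 4.0.16 in R 4.3.3 (TMM, glmQLFit, glmQLFTest, Benjamini-Hochberg adjustment), 1 fit per cell type, and the SE was taken from the F statistic. DESeq2 1.42.0 was the alternative test. The edgeR fit was tested on simulated counts for the contrast from small to medium follicles, and DESeq2 was not. Correlations and permutation tests (100000 resamples at 10 follicles, all pairings below, seed 1) used log2(CPM + 1) in Python 3.11.15 with numpy 2.4.6, pandas 2.3.3 and scipy 1.17.1, and plots used matplotlib 3.10.9. Follicles of a stage were taken as separate groups where an inner gap exceeded 0.333 of their log2 range, a limit set after the values were seen. The permutation test planned between both genes in MGCs is not given, since MGC values chose them. The genes named were both members by identifier. Lists of marker and pathway genes and the genes most like the members were planned by symbol and were not run. The MGCs, CCs and oocyte of 1 follicle share its number in the labels, which pairs them. Other alternatives were DESeq2's size factors, edgeR's filterByExpr, no filter, all 30 follicles, the healthy follicles, the identifier prefix as a covariate and leaving out each follicle in turn. The 17 follicles outside the healthy set were added as an alternative after the data were seen.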

Additional observations from a re-analysis of the deposited data

Results flagged for a closer look

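In CCs of medium follicles, M4 stood far above the other 7 for ENSBTAG00000008827, with 2.40 CPM against 0.645 CPM in the next one. It was 1 such sample in 18 groups tested, and chance gives about 1 in 20. M4 also held the most of this gene in the MGCs of medium follicles. M7, the next highest there at 734 CPM, and L3, the highest of all at 1907 CPM, had 0 counts in CCs. Whether MGCs had a part in the CC value of M4 was not tested.

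The 3 follicles removed by the study were in no comparison of the retained follicles, and both genes had signal in them. In MGCs, ENSBTAG00000008827 had 347 CPM in the removed small follicle of 3.7 mm, 333 CPM in the medium one of 7.0 mm and 170 CPM in the medium one of 7.1 mm, and ENSBTAG00000023929 had 266, 199 and 346 CPM in the same order. These values lay above all healthy small and medium follicles and within the range of the other retained ones of all stages. The 346 CPM of the 7.1 mm follicle lay above every retained medium follicle, which reached 303 CPM. The medium follicle of 7.1 mm shared its identifier prefix with M6, whose MGCs held 0.746 and 5.28 CPM, so a low and a high follicle occurred within 1 prefix.

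In CCs of the same 3 follicles, ENSBTAG00000008827 had 10.7, 0.552 and 2.63 CPM and ENSBTAG00000023929 had 17.6, 4.67 and 14.3 CPM. In oocytes, ENSBTAG00000008827 had 2.92 CPM in the small follicle and 0 counts in both medium ones, and ENSBTAG00000023929 had 39.4, 75.02 and 15.4 CPM. The CCs of the removed small follicle lay above those of every retained small follicle for both genes.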

How the results depend on the processing

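Over the alternatives other than leaving out each follicle in turn, 162 values kept their direction and side of the threshold (or, in MGCs, moved by less than the SD within a stage). That SD, 2.97 and 1.87 in log2 for the genes in order, is a spread between follicles. It exceeds the SE of the MGC fold changes, so it is a wide limit. Of the other values, 13 changed sign, 3 moved further and 1 gained a call. The last 1 was the r of 0.85 below. For this and any other r between both genes, the side of the threshold is not read, because MGC values chose them. In MGCs, the healthy follicles gave 5.02 and 7.32 for ENSBTAG00000008827 from medium and from small to large and 3.36 and -0.85 for ENSBTAG00000023929 from medium to large and from small to medium. The identifier prefix gave -1.12 and -1.15 from medium to large for both genes in that order and -0.59 for ENSBTAG00000023929 from small to large. It also gave -1.44 for ENSBTAG00000008827 in CCs from medium to large, -2.34 in oocytes from small to large, and -0.32 for ENSBTAG00000023929 in oocytes from medium to large. All 30 follicles gave -0.32 for ENSBTAG00000008827 in CCs from small to medium and 0.82 for CCs minus oocytes. The healthy follicles gave 0.18 in CCs and -0.049 in oocytes for ENSBTAG00000023929 from medium to large, and the follicles outside that set gave 0.47 for ENSBTAG00000008827 in oocytes from small to medium and r of 0.85 for both genes in small follicles. DESeq2 gave 4.85 for ENSBTAG00000008827 in CCs from small to large. TMM-scaled CPM turned the r of ENSBTAG00000008827 between MGCs and CCs of small follicles from -0.061 to 0.072. The fit with the follicle as a replicate block, the only paired one since stages hold different follicles, gave -1.24 and -3.96 for CCs minus oocytes and changed no call. The causes were not tested.

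Leaving out each follicle in turn moved the log2 fold changes as follows, from small to medium, medium to large and small to large. ENSBTAG00000008827 ran from 1.70 to 4.10, -0.29 to 0.98 and 2.0 to 4.49 in MGCs, from 1.80 to 3.40, 0.61 to 2.92 and 3.54 to 5.21 in CCs, and from -2.24 to -0.78, 1.85 to 3.54 and 0.77 to 1.59 in oocytes. ENSBTAG00000023929 ran from 0.33 to 1.11, 0.24 to 0.84 and 0.79 to 1.72 in MGCs, from 1.76 to 3.50, -1.40 to -0.04 and 1.41 to 2.42 in CCs, and from 0.63 to 1.04, 0.02 to 0.29 and 0.82 to 1.15 in oocytes. The sign turned in MGCs without L3. ENSBTAG00000023929 passed both limits in oocytes from small to medium without S7, and from small to large without S3, S7 or L9.

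Counts of all genes called also moved. In CCs from small to large, 505 genes were called, against 1349 with DESeq2, 280 with all 30 follicles, 12 in the healthy set, 6 with the prefix, 7 with the S7 library and 0 outside the healthy set. In oocytes from small to large, 225 were called, against 1 in the healthy set and 0 with all 30 follicles, with the prefix or outside the healthy set, and from small to medium 11 were called, against 39 with DESeq2. Leaving out single follicles gave 0 to 830 genes in CCs and 96 to 465 in oocytes from small to large, with 0 in CCs without S1, S9, L4, L7 or L9. Low counts limit ENSBTAG00000008827 in CCs and oocytes, where 12 of 26 and 7 of 27 libraries were at 0.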
